A study of Mus musculus with 6 samples.

Results

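Gene expression in the liver was measured on Illumina MouseRef-8 bead arrays in male mouse pups on the FVB/N background (labelled FVB) at postnatal day 6, with 3 hSRY-ON and 3 hSRY-OFF pups and 1 array per pup. By the paper's definition of these groups, all 6 pups carried the Signalox-hSRY transgene, a single copy placed at the H11 locus on chromosome 11. In it the CAG promoter drives the red fluorescent protein DsRed2 until a Cre recombinase removes that segment. In hSRY-ON pups the segment had been removed in the early embryo by Cre protein from the oocyte of a Ddx4-Cre mother, so that the promoter drove human *SRY* and EGFP in the whole body rather than in 1 cell type, and the pups used did not carry the Ddx4-Cre transgene themselves. In hSRY-OFF pups the cassette was left unrecombined and *SRY*, the gene that starts testis development, stayed silent. The paper also uses littermates without this transgene as controls. Litters of the array pups are not given, so an effect of mother or litter cannot be told apart from that of *SRY*. The genes described here were 10 genes of neutrophils and their bone marrow and liver precursors, *S100a8*, *S100a9*, *Ngp*, *Camp*, *Ltf*, *Mpo*, *Prtn3*, *Lcn2*, *Chi3l3* and *Ctsg*, and every probe that the array table assigned to them was taken, which gave 15 of 25697 probes (10 of 18138 gene symbols). A probe counted as detected where its deposited detection p-value was under 0.01, and all 15 probes belonged to the 10734 that were detected on at least 3 of the 6 arrays and were tested. Of the 15 probes, 13 were detected on all 6 arrays. The exceptions were a dim *Ltf* probe (ILMN_2889020), detected on all 3 control arrays and 1 hSRY-ON array, and a dim *Chi3l3* probe (ILMN_3117876), detected on 1 control array and all 3 hSRY-ON arrays.

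Neutrophils are built in a fixed order, and their granules are filled by whatever the cell transcribes at each stage. Promyelocytes make the proteins of the primary (azurophil) granules, among them *Mpo*, *Prtn3* and *Ctsg*. The genes of the secondary (specific) granules, such as *Ltf*, *Camp* and *Ngp*, come on later, in myelocytes and metamyelocytes, and the paired cytosolic proteins *S100a8* and *S100a9* accumulate as the cell matures. The liver of newborn mice is still a blood-forming organ, so the RNA of such precursors is present in a whole-liver extract, which also holds the RNA of hepatocytes, macrophages, red cell precursors and endothelium. *Lcn2* and *Chi3l3* have further sources, hepatocytes under acute phase stimulation for the first and macrophages for the second.

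The stage order is set by transcription factors of the C/EBP family and by PU.1, whose binding motifs are known from promoters of these genes, so the promoters of the 6 granule genes are shown to set the 2 classes side by side. The sequences are the 250 bases before the annotated start in RefSeq, build GRCm38.p6, each written 5′ to 3′ on the strand of its gene, and all 10 genes were matched (*Chi3l3* under its present name *Chil3*). Capitals mark matches on either strand to TTNNGNAA, the core of the C/EBP motif, or to GAGGAA, the core of the PU.1 motif. The primary granule genes were *Mpo* at chr11:87793534-87793783 (plus strand), *Prtn3* at chr10:79879417-79879666 (plus strand) and *Ctsg* at chr14:56102575-56102824 (minus strand):
Mpo: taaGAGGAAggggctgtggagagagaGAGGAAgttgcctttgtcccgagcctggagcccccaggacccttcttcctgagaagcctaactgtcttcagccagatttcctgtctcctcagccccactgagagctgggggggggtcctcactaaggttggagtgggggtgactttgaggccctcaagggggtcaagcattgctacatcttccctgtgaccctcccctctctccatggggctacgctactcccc
Prtn3: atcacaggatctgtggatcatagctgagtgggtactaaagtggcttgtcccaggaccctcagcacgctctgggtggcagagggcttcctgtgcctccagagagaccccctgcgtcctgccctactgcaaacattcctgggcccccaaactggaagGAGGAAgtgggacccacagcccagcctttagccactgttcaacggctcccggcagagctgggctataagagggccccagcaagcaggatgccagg
Ctsg: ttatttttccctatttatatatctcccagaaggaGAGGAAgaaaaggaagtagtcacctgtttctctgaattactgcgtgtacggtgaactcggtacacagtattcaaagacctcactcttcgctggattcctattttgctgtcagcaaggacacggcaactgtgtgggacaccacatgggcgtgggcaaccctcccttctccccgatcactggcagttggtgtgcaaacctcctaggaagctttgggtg
The secondary granule genes, all on chromosome 9, were *Camp* at chr9:109849457-109849706 (minus strand), *Ltf* at chr9:111019042-111019291 (plus strand) and *Ngp* at chr9:110419558-110419807 (plus strand):
Camp: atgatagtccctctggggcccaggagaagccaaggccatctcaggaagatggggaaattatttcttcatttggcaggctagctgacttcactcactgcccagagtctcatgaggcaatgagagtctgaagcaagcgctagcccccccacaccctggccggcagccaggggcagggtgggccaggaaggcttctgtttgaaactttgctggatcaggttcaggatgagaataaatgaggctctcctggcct
Ltf: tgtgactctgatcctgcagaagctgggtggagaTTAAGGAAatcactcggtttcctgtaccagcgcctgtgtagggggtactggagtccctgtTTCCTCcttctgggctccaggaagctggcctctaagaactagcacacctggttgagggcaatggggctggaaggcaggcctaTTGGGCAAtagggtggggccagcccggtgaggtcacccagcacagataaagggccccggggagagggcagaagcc
Ngp: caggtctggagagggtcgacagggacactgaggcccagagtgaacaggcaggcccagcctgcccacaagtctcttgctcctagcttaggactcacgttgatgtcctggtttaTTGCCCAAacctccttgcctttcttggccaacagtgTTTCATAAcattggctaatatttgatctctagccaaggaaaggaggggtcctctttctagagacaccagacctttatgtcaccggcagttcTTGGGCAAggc
The 3 primary granule promoters held 2, 1 and 1 PU.1 matches for *Mpo*, *Prtn3* and *Ctsg* and 0 C/EBP matches. *Ngp* held 3 C/EBP and 0 PU.1 matches, *Ltf* held 2 and 1, and *Camp* held neither in this window. Over all 10 genes, 6 promoters had a C/EBP match and 6 a PU.1 match, where 36.8% and 23.3% of 32851 mouse promoters of the same length had one. These are matches of letters, and factor binding was not measured. *Ngp* lies between *Camp* and *Ltf*, with 8 protein-coding genes on one side and 20 on the other, *S100a8* and *S100a9* are direct neighbours on chromosome 3, and *Prtn3* is the direct neighbour of *Elane* (neutrophil elastase) on chromosome 10.

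The 6 arrays were alike in technical measures, with 40.2% to 41.9% of probes detected, median intensities of 147 to 165 and highest intensities of 44365 to 47161. However, hSRY-ON replicate 3 stood apart from the other hSRY-ON arrays at the neutrophil genes, and each result of the 10 genes is therefore given with and without it. It was left out for its values at these same genes and not for a technical measure. Leaving it out also narrows the hSRY-ON spread at most of these probes. Adjusted p-values without replicate 3 are therefore a description of the remaining livers and no test of a decrease. Replicate 3 was the highest of the 6 at 13 of the 15 probes, compared with 19.8% of all tested probes, and lay at least 1 log2 unit above the mean of hSRY-ON replicates 1 and 2 at 11 of the 15, compared with 2.11% of all tested probes. The exceptions to the first count were *Lcn2* and the dim *Ltf* probe. The spread was larger in the hSRY-ON than in the hSRY-OFF group at all 15 probes, with a median SD of 0.996 against 0.206 on the log2 scale, where the medians over all tested probes were 0.21 and 0.14. In a whole-liver extract, fewer cells of a type and less RNA per cell cannot be told apart, and a p-value describes the spread between these 3 pups per group.

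With all 6 arrays, 1 of the 15 probes passed the threshold of an adjusted p of 0.05 (limma, Benjamini-Hochberg adjustment over the 10734 tested probes). It was a *Chi3l3* probe and was higher in hSRY-ON livers, where 15.8% of all tested probes were higher (33.1% passed the threshold in either direction). None of the 15 was lower (0 probes), where 17.3% of all tested probes were lower, and at an unadjusted p under 0.05 there were 4 probes in all, the dim *Ltf* probe (lower) and the 3 *Chi3l3* probes (higher), compared with 45.3% of all tested probes. The groups did not overlap at 3 probes, all higher in hSRY-ON (*Ctsg*, 1 of 3 *Mpo* probes and 1 of 3 *Chi3l3* probes), compared with 25.4% of all tested probes that were higher without overlap and 24.6% that were lower. Without hSRY-ON replicate 3, 6 of the 15 probes were lower and 0 higher, where 20.2% and 17.4% of the 10494 probes tested were. These 6 probes were those of the secondary granule genes *Camp*, *Ltf* (both probes) and *Ngp* and of *S100a8* and *S100a9*. Among them the dim *Ltf* probe passed the filter of that fit only through the hSRY-OFF arrays, so it could only be called lower.

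**Figure D1:**
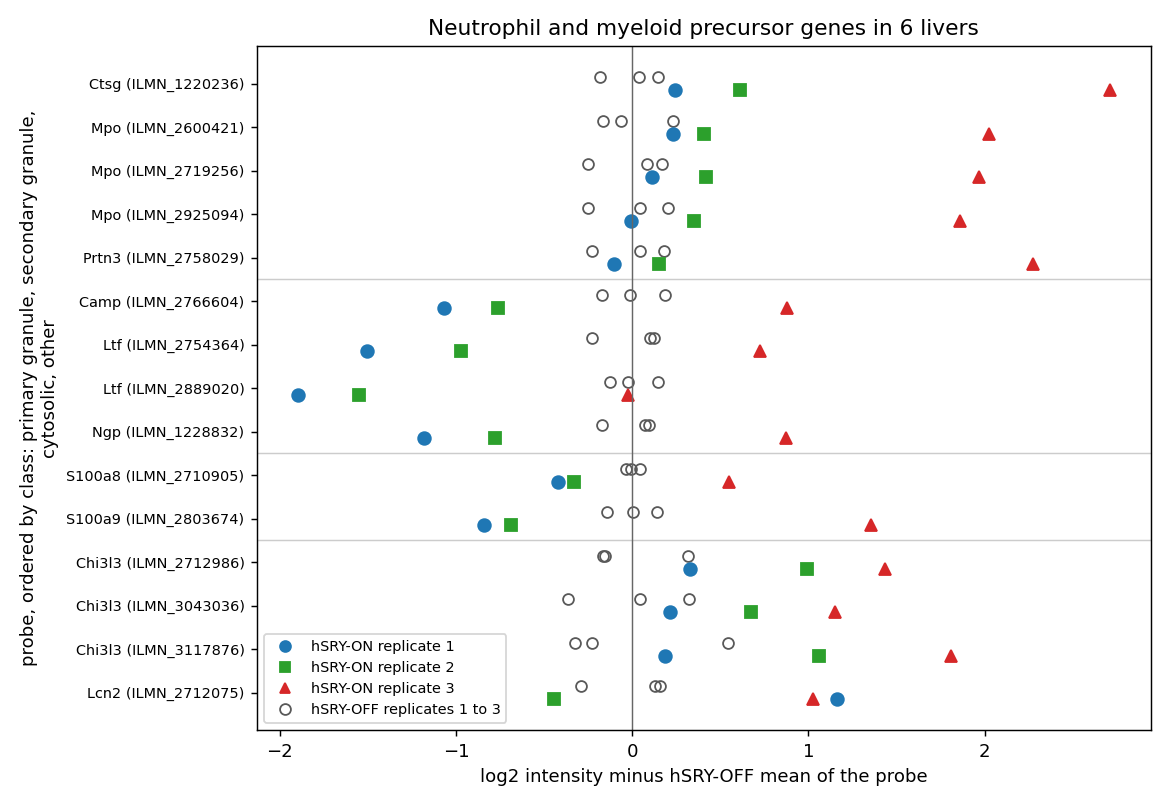
Log2 intensity of each of the 15 probes in 6 livers, as the difference from the hSRY-OFF mean of the same probe; open circles are hSRY-OFF pups and filled symbols the 3 hSRY-ON pups. The red triangle, hSRY-ON replicate 3, is the highest point at 13 of 15 probes, while the blue circles and green squares, replicates 1 and 2, lie below all open circles at 6 of 15 probes (31.5% of all tested probes do so), all of secondary granule genes or of *S100a8* and *S100a9*.

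The primary granule genes were examined first. *Ctsg* encodes cathepsin G, a serine protease of the azurophil granule, and its probe read 9.22, 9.001 and 9.33 on the log2 scale in hSRY-OFF livers and 9.43, 9.79 and 11.89 in hSRY-ON livers. All 3 hSRY-ON values lay above all hSRY-OFF values, replicates 1 and 2 by little and replicate 3 by far. The difference of 1.19 ± 0.58 (SE, n = 3 each) did not pass the threshold (adjusted p = 0.154), and without replicate 3 it was 0.43 (adjusted p = 0.0863).

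*Mpo* encodes myeloperoxidase, the heme enzyme that makes hypochlorous acid, and was read by 3 probes. The brightest read 10.97, 10.57 and 10.67 in hSRY-OFF and 10.97, 11.14 and 12.76 in hSRY-ON livers (ILMN_2600421). The second read 8.72, 8.30 and 8.63 against 8.66, 8.97 and 10.52 (ILMN_2719256), and the third 9.83, 9.38 and 9.67 against 9.62, 9.98 and 11.49 (ILMN_2925094). At each of the 3 probes hSRY-ON replicate 1 was within or at the edge of the hSRY-OFF range, replicate 2 was slightly above it and replicate 3 was well above it. The differences of 0.73 to 0.89 had adjusted p-values of 0.161 to 0.241, and fell to 0.17 to 0.32 without replicate 3 (adjusted p = 0.152 to 0.493).

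*Prtn3*, proteinase 3, read 10.06, 9.66 and 9.93 in hSRY-OFF and 9.78, 10.03 and 12.16 in hSRY-ON livers. Replicates 1 and 2 were inside the hSRY-OFF range and replicate 3 was 4.75-fold above their mean. The difference was 0.77 ± 0.57 (SE, adjusted p = 0.329) with all arrays and 0.02 (adjusted p = 0.92) without replicate 3. Among the 5 probes of the class, the excess of replicate 3 over replicates 1 and 2 was 1.69 to 2.28 log2 units.

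The secondary granule genes gave a different order of arrays. *Camp* encodes the antimicrobial peptide precursor cathelicidin and read 12.31, 12.15 and 12.51 in hSRY-OFF and 11.26, 11.56 and 13.20 in hSRY-ON livers. Replicates 1 and 2 lay below and replicate 3 above every hSRY-OFF liver. The difference was -0.32 ± 0.46 (SE, adjusted p = 0.631) with 3 arrays. It was -0.92 (adjusted p = 0.00625), a 1.89-fold decrease, without replicate 3, and 0.054 without hSRY-ON replicate 1.

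*Ltf*, lactoferrin, is the iron-binding protein of the specific granule. Its bright probe read 13.16, 12.82 and 13.18 in hSRY-OFF and 11.55, 12.09 and 13.78 in hSRY-ON livers (ILMN_2754364), with replicates 1 and 2 below and replicate 3 above every hSRY-OFF liver. The difference was -0.58 ± 0.51 (SE, adjusted p = 0.416), and -1.24 (adjusted p = 0.0047), a 2.36-fold decrease, without replicate 3. The dim *Ltf* probe read 6.86, 6.59 and 6.69 against 4.82, 5.16 and 6.69 (ILMN_2889020), so that replicate 3 lay within the hSRY-OFF range and replicates 1 and 2 far below it. Its difference was -1.16 ± 0.44 (SE, adjusted p = 0.082), and as neither replicate 1 nor 2 detected it, the decrease without replicate 3 is a bound, at least 2.05-fold (adjusted p = 0.000609). In that fit the dim probe passed the filter only through the hSRY-OFF arrays, so only a decrease could be called and the p-value adds no support.

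*Ngp*, neutrophilic granule protein, read 12.83, 12.59 and 12.85 in hSRY-OFF and 11.57, 11.98 and 13.63 in hSRY-ON livers. As at *Camp*, replicates 1 and 2 were the lowest of the 6 values and replicate 3 the highest. The difference of -0.36 ± 0.48 (SE, adjusted p = 0.595) became -0.99 (adjusted p = 0.00567), a 1.98-fold decrease, without replicate 3. The excess of replicate 3 over replicates 1 and 2 was 1.70 to 1.96 log2 units at the 4 probes of this class.

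*S100a8* and *S100a9* encode the subunits of calprotectin, an abundant cytosolic protein of mature neutrophils and monocytes. *S100a8* read 14.35, 14.32 and 14.40 in hSRY-OFF and 13.94, 14.03 and 14.91 in hSRY-ON livers. *S100a9* read 12.27, 12.12 and 12.40 against 11.42, 11.57 and 13.61. At both genes replicates 1 and 2 were below and replicate 3 above all hSRY-OFF values, and the group means were close, with differences of -0.07 ± 0.25 for *S100a8* and -0.06 ± 0.54 for *S100a9* (SE, adjusted p = 0.862 and 0.945). Without replicate 3 the differences were -0.37 (adjusted p = 0.0429) and -0.77 (adjusted p = 0.00654). The excess of replicate 3 was 0.93 log2 units for *S100a8* and 2.12 for *S100a9*.

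**Figure D2:**
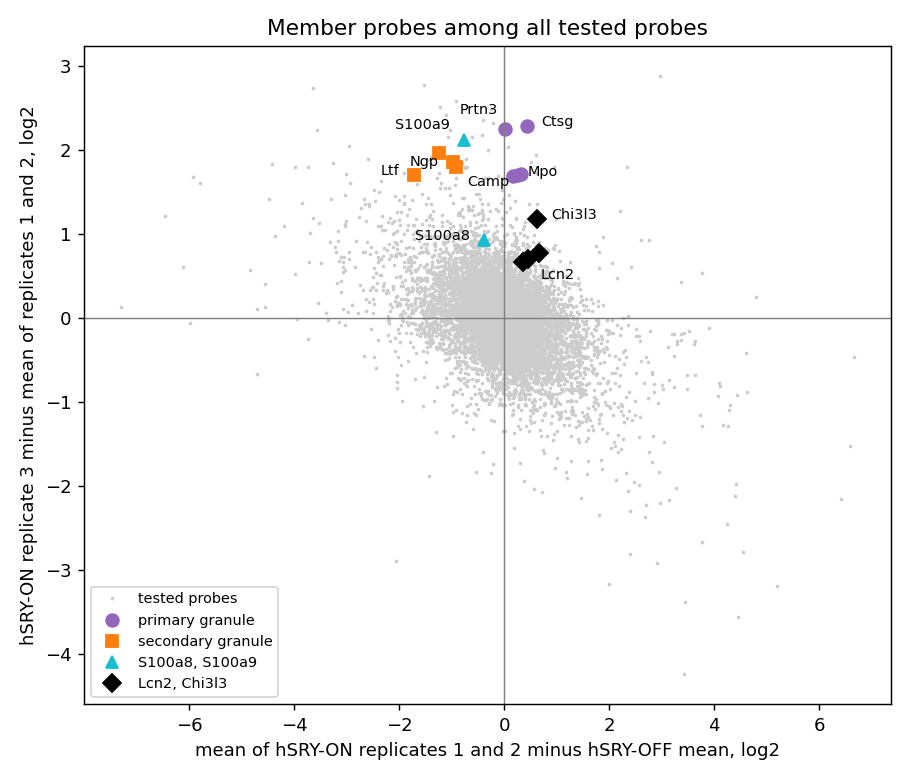
Each tested probe (grey) by the change in hSRY-ON replicates 1 and 2 (x axis, log2 difference from the hSRY-OFF mean) and by the excess of hSRY-ON replicate 3 over these replicates (y axis, log2); replicates 1 and 2 enter both axes with opposite sign, which tilts the grey cloud. Primary granule probes lie near 0 on the x axis, from 0.02 (*Prtn3*) to 0.43 (*Ctsg*), and secondary granule probes to the left, yet both classes lie at 1.69 or more on the y axis, where 2.11% of all probes reach 1.

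Because the level of these genes differed so much between hSRY-ON livers, the classes were also set against each other within each array, a comparison chosen after the values were seen and given as a description with no test. For each gene the probes detected on all arrays were averaged, the hSRY-OFF mean was subtracted, and genes were averaged within a class. Primary granule genes were changed by 0.09, 0.38 and 2.31 log2 units in hSRY-ON replicates 1, 2 and 3, and secondary granule genes by -1.25, -0.84 and 0.83. The change of the secondary relative to the primary class was therefore -1.34, -1.22 and -1.49 in the 3 hSRY-ON livers, against -0.08, 0.02 and 0.06 in the 3 hSRY-OFF livers. The replicate that stood apart in level did not stand apart in this ratio. The mean was -1.35 ± 0.13 (SD, n = 3) in hSRY-ON livers with an SD of 0.08 in hSRY-OFF livers, so that *Camp*, *Ltf* and *Ngp* were 2.55-fold lower relative to *Mpo*, *Prtn3* and *Ctsg* than in hSRY-OFF livers. The ratio depended on which genes stood for the primary class. *Fcnb*, placed here in a list of further primary granule genes and not among the 10, changed by -1.62, -1.13 and 1.27 in the hSRY-ON livers. Relative to *Fcnb* the secondary class changed by 0.37, 0.29 and -0.45, with no common direction. *Ms4a3*, in the same list, changed by -0.47, -0.03 and 2.24. With both added to the primary class the ratio was -0.88, -0.84 and -1.26, a mean of -0.995. The contrast is therefore one of *Mpo*, *Prtn3* and *Ctsg* with *Camp*, *Ltf* and *Ngp*. Likewise *S100a8* and *S100a9* changed by -0.63, -0.51 and 0.95, which was -0.71, -0.89 and -1.36 relative to the primary class, with a mean of -0.99 ± 0.33 (SD, n = 3).

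**Figure D3:**
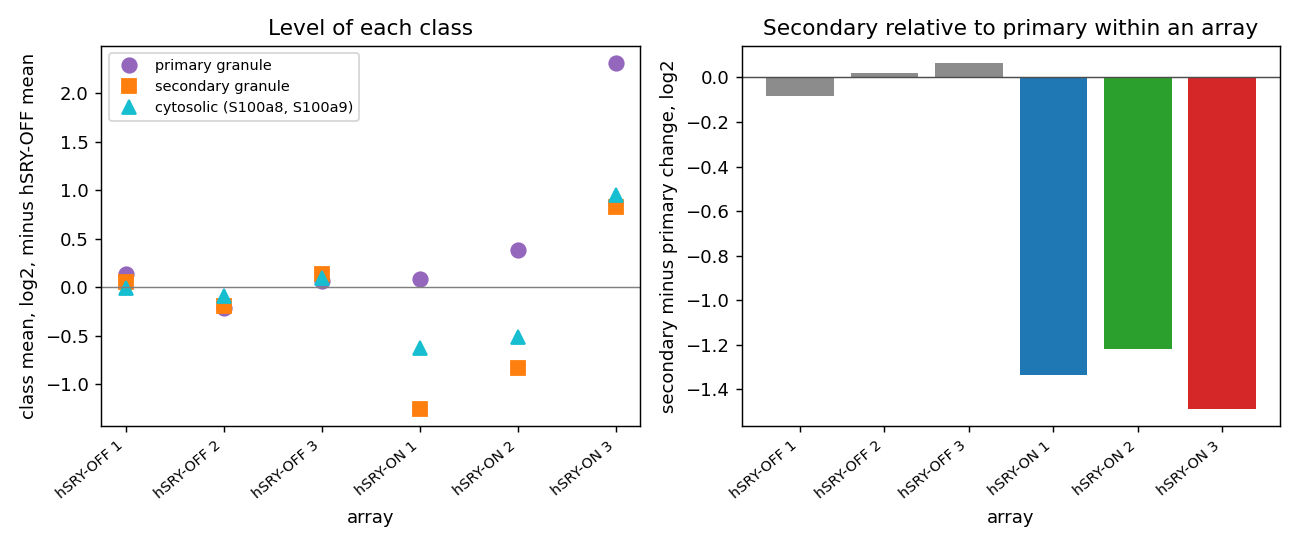
Left, mean change of the primary granule genes (*Mpo*, *Prtn3*, *Ctsg*), the secondary granule genes (*Camp*, *Ltf*, *Ngp*) and *S100a8* with *S100a9* on each array, in log2 units from the hSRY-OFF mean. Right, bars of the change of the secondary relative to the primary class on each array, between -0.08 and 0.06 in the hSRY-OFF livers (grey) and between -1.49 and -1.22 in the hSRY-ON livers (coloured).

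The genes with further sources followed neither class. *Chi3l3* encodes Ym1, a chitinase-like protein of neutrophils and alternatively activated macrophages, and was read by 3 probes. The brightest read 8.80, 8.81 and 9.28 in hSRY-OFF and 9.29, 9.96 and 10.40 in hSRY-ON livers (ILMN_2712986), so the groups did not overlap although hSRY-ON replicate 1 was barely above the highest hSRY-OFF value. This probe rose by 0.92 ± 0.29 (SE, adjusted p = 0.0434), a 1.89-fold increase, and the call was lost without replicate 3 (0.66, adjusted p = 0.0742). The second probe read 6.96, 7.37 and 7.65 against 7.54, 8.001 and 8.47 (ILMN_3043036) and the third 5.57, 5.66 and 6.43 against 6.08, 6.95 and 7.69 (ILMN_3117876). Their groups overlapped at replicate 1, and the differences of 0.68 and 1.02 had adjusted p-values of 0.0901 and 0.0968, and were 0.45 and 0.63 without replicate 3 (adjusted p = 0.181 and 0.194). Closely related chitinase-like genes exist in the mouse, and cross-hybridisation of these probes was not tested.

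*Lcn2* encodes lipocalin 2, a siderophore-binding protein of the specific granule and of hepatocytes. Its probe read 13.02, 12.57 and 12.99 in hSRY-OFF and 14.03, 12.42 and 13.89 in hSRY-ON livers. Replicate 1 was the highest and replicate 2 the lowest of all 6, an order that no other probe of the 15 showed. The difference was 0.58 ± 0.41 (SE, adjusted p = 0.304). It was 0.36 without hSRY-ON replicate 3 (adjusted p = 0.545) and 1.07 without hSRY-ON replicate 2 (adjusted p = 0.0068). Replicate 1, the highest for *Lcn2*, was also the highest for the acute phase genes *Orm1* and *Orm2*, whose orosomucoids are made by hepatocytes. The likeness did not extend to replicates 2 and 3, which lay far apart at *Lcn2*, close together at *Orm1* and in the opposite order at *Orm2*. *Orm1* read 8.26, 8.17 and 8.50 in hSRY-OFF against 12.60, 10.97 and 11.11 in hSRY-ON livers, a rise of 3.25 (adjusted p = 0.00145). *Orm2* read 5.55, 5.29 and 5.39 in hSRY-OFF livers, where 0 arrays detected it, against 10.70, 7.67 and 6.52 in hSRY-ON livers. The rise was at least 5.88-fold (adjusted p = 0.0486), and at least 2.56-fold with hSRY-ON replicate 1 left out. The *Orm2* probe passed the filter only through the hSRY-ON arrays, so only a rise could be called and the p-value adds no support. *Saa3* fell by 1.17 (adjusted p = 0.00296) and 3 *Itih4* probes also fell, while the probes of *Hp*, *Hpx*, *Apcs* and *Fgl1* did not pass the threshold. In all, 2 of 14 acute phase probes were higher and 4 lower, where 15.8% and 17.3% of all tested probes were. The part of the hepatocytes in the *Lcn2* values was not tested.

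Other genes of the granulocyte lineage were taken from lists of known markers. In the list of further primary granule genes, 3 probes were tested and 0 passed the threshold, with a median difference of -0.38. It held both *Fcnb* (ficolin B) probes and *Ms4a3*, a gene of myeloid progenitors, while *Elane* and *Prss57* were not matched by name. *Fcnb* read 8.62, 8.23 and 8.69 in hSRY-OFF and 7.04, 7.55 and 9.81 in hSRY-ON livers (ILMN_2663083), with replicates 1 and 2 lowest and replicate 3 highest, as at the secondary granule genes. Without replicate 3 both *Fcnb* probes were lower (2.33-fold and 2.88-fold decreases, adjusted p = 0.00583 and 0.00216). The probes of *Mpo*, *Prtn3* and *Ctsg* did not pass the threshold in that fit, and the difference between these genes and *Fcnb* was not tested. *Ms4a3* read 6.89, 6.53 and 7.21 against 6.41, 6.85 and 9.12.

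In the list of further secondary and tertiary granule and late neutrophil genes, 11 probes were tested and 0 passed the threshold with all arrays, with a median difference of -0.16 where that of all tested probes was 0.02. Replicates 1 and 2 of hSRY-ON were below every hSRY-OFF array at all 11 probes, compared with 31.5% of all tested probes, and replicate 3 was the highest array at 10, the exception being *Mmp9*. Without replicate 3, where 20.2% of all tested probes were lower and 17.4% higher, 9 of the 11 probes were lower and 0 higher. They included *Cd177*, a surface protein of the specific granule (2.06-fold and 2.15-fold at its 2 probes), *Chi3l1* (2.06-fold), *Olfm4*, or olfactomedin 4 (1.91-fold), *Mmp9*, the gelatinase of tertiary granules (1.81-fold), and the peptidoglycan-binding protein *Pglyrp1* (1.63-fold). The spread of replicate 3 thus ran through the late genes outside the 10 as well. On the sum of normalized intensities over the 11 probes, hSRY-OFF livers ranged from 23680 to 26560, and hSRY-ON replicates 1, 2 and 3 were at 16140, 18560 and 49060. The corresponding sums over the 15 probes of the 10 genes were 53310 to 62860 in hSRY-OFF and 49020, 43460 and 116000 in hSRY-ON livers.

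Of the surface receptors, 5 of 17 probes were tested and 2 were higher (15.8% of all tested probes were), both for *Trem1*, an amplifying receptor of neutrophils and monocytes. Detection of *Trem1* was limited to the hSRY-ON group, on 3 of 3 arrays against 0 of 3, and it was at least 1.57-fold and at least 1.35-fold higher at its 2 probes (adjusted p = 0.0202 and 0.00424). Both probes passed the filter only through the hSRY-ON arrays, so only a rise could be called and the p-values add no support. *Trem1* values were 5.96, 7.15 and 6.06 in the hSRY-ON livers at the first probe, so that replicate 2 and not replicate 3 was the highest. The chemokine receptor *Cxcr4*, which holds neutrophils at sites of *Cxcl12*, and the formyl peptide receptor *Fpr2* did not pass the threshold (differences of 0.24 and 0.28, adjusted p = 0.557 and 0.449).

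The transcription factors of the lineage were split. *Cebpa*, needed for the step to the promyelocyte and abundant in hepatocytes, read 9.65, 9.69 and 9.76 in hSRY-OFF and 8.34, 8.40 and 7.38 in hSRY-ON livers, a decrease of 3.16-fold (adjusted p = 0.00392). *Cebpb*, which drives emergency granulopoiesis and the hepatic acute phase response, read 11.18, 11.36 and 10.78 against 12.56, 12.73 and 12.19 and was 2.61-fold higher (adjusted p = 0.00266). For both genes the groups did not overlap, and replicate 3 was the lowest hSRY-ON array. *Cebpe*, the factor of specific granule genes, read 7.71, 7.71 and 7.86 against 6.82, 6.68 and 8.59 (ILMN_3029849), with replicates 1 and 2 below and replicate 3 above all hSRY-OFF values, as at *Camp* and *Ngp*. It had a difference of -0.40 (adjusted p = 0.547) with all arrays. In the fit without replicate 3, 5 of the 6 tested probes of the list were lower, both of *Cebpe* and those of *Cebpa*, *Gfi1* and *Sfpi1* (PU.1), and 1, that of *Cebpb*, was higher. The dimmer *Cebpe* probe (ILMN_3103062) passed the filter of that fit only through the hSRY-OFF arrays, so it could only be called lower and its call adds no support. Of all probes tested in that fit, 20.2% were lower and 17.4% higher.

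Of the cytokines and chemokines that act on neutrophils, 5 of 15 probes were tested and 3 were lower with all arrays and also without replicate 3 (17.3% and 20.2% of all tested probes were). All 3 belonged to *Cxcl12*, the chemokine that retains myeloid cells in blood-forming tissue. Its brightest probe read 13.68, 13.66 and 13.59 in hSRY-OFF and 12.02, 11.76 and 11.98 in hSRY-ON livers (ILMN_2658908), without overlap and with replicate 3 inside the range of the other hSRY-ON livers. At both other tested *Cxcl12* probes replicate 3 was the lowest array, at 8.26 (ILMN_3158250) and 8.21 (ILMN_2737302). The decreases were 4.03-fold, 3.72-fold and 3.31-fold (adjusted p = 0.000335, 0.000253 and 0.000185). *Cxcl1*, a neutrophil-attracting chemokine, read 9.83, 9.83 and 8.995 against 9.40, 8.51 and 7.63 (difference -1.04, adjusted p = 0.109, and -0.60 without replicate 3). *Il1b* differed by 0.23 (adjusted p = 0.809) and was spread widely in both groups.

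Markers of other cells of the liver moved as well, and their part in the values of the 10 genes was not tested. Kupffer cell and macrophage markers, which bear on *Chi3l3*, had 4 of 12 tested probes lower and 1 higher, or 6 lower and 0 higher without replicate 3. Over all tested probes, 17.3% were lower and 15.8% higher, and 20.2% and 17.4% without replicate 3. The summed level of these markers was 13640 to 17030 in hSRY-OFF livers and 10780, 11460 and 13420 in hSRY-ON replicates 1, 2 and 3. The brighter *Clec4f* probe (ILMN_2702159) and *Emr1* were among the lower ones (adjusted p = 0.0132 and 0.0107), while *Cd163* and *Cd5l* were detected nowhere. Among monocyte markers, 1 of 5 tested probes was higher, that of *F13a1* (4.83-fold, adjusted p = 0.000756). *Cx3cr1* and *Ly86* did not pass the threshold (differences of -0.565 and 0.017, adjusted p = 0.352 and 0.952), and *Ccr2* was detected nowhere. *Lyz2*, which neutrophils share, read 13.13, 12.87 and 12.998 against 12.35, 12.49 and 13.64, again with replicate 3 highest and replicates 1 and 2 lowest. *Prg2*, the major basic protein of eosinophil granules, read 13.27, 13.12 and 12.70 in hSRY-OFF and 10.26, 10.74 and 10.36 in hSRY-ON livers, a 5.98-fold decrease (adjusted p = 0.000227) at which replicate 3 did not stand apart. *Epx*, the eosinophil peroxidase, was on the array without passing the filter, and of the mast cell and basophil markers, *Mcpt8*, *Ms4a2* and *Fcer1a* were detected nowhere and *Cpa3* on 1 array with 1 of its 3 probes.

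Beside the counts that follow, 15.8% of all tested probes were higher and 17.3% lower. Megakaryocyte probes were higher at 6 of 7, among them *Itga2b* and *Gp1bb* (both 3.07-fold), and erythroid probes at 2 of 7, *Alas2* and *Bzrpl1* (now *Tspo2*). B cell probes were lower at 4 of 4 and T and NK cell probes at 3 of 4. At the B and T cell probes that passed the threshold, hSRY-ON replicate 3 lay between the other hSRY-ON livers and the hSRY-OFF livers, as at *Vpreb1*, with 8.20, 7.55 and 8.08 in hSRY-OFF and 4.97, 5.40 and 6.39 in hSRY-ON livers. The summed level of the 4 B cell probes was 840.6 to 1169 in hSRY-OFF livers and 198.5, 191.3 and 511.4 in hSRY-ON replicates 1, 2 and 3. Hepatocyte probes were lower at 2 of 7 (*Alb* and *Ttr*), and their summed level was 157700 to 161200 in hSRY-OFF livers and 143600, 148600 and 151000 in hSRY-ON livers. Progenitor probes were lower at 1 of 2 (*Meis1*), and probes of sinusoidal endothelium were higher at 3 of 4 (*Lyve1* and both *Pecam1* probes).

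**Figure D4:**
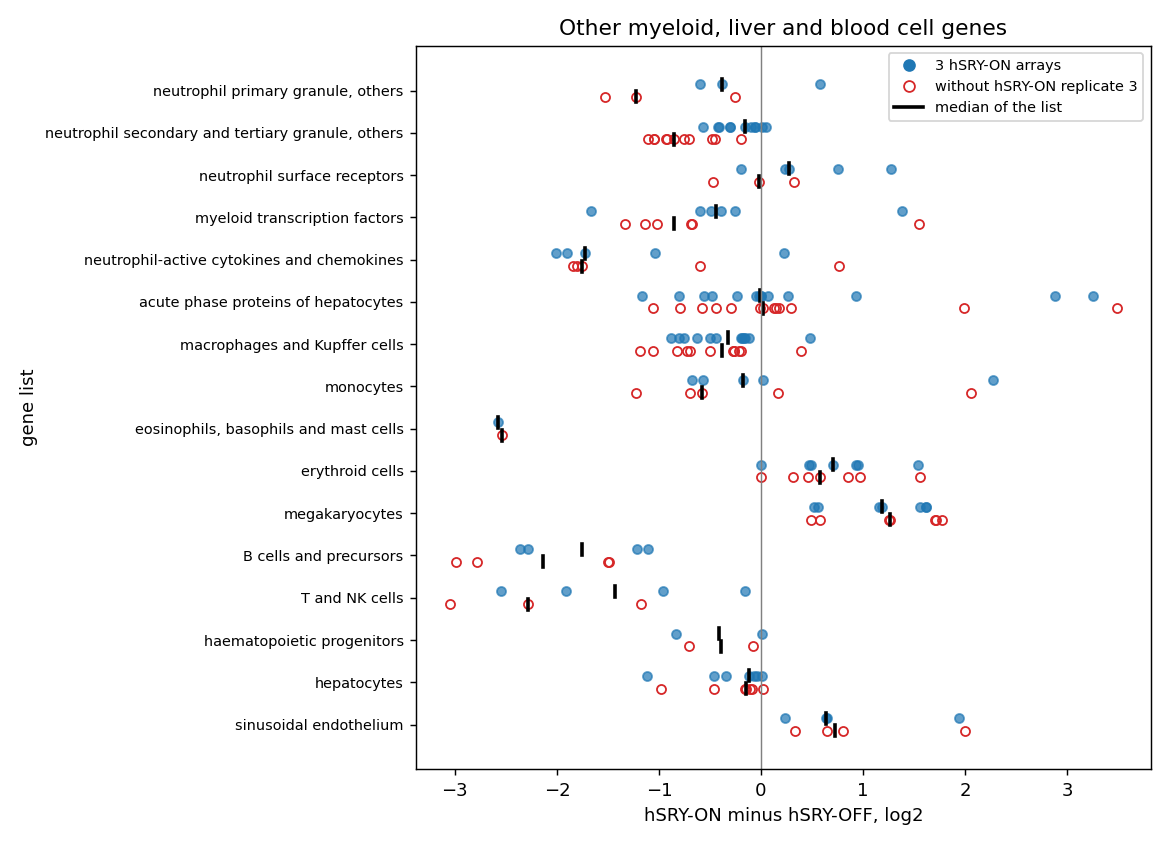
Difference between hSRY-ON and hSRY-OFF livers (log2) for the tested probes of 16 marker lists, with all arrays (filled blue) and without hSRY-ON replicate 3 (open red); the black bar is the median of the list. The list of secondary and tertiary granule genes lies at a median of -0.16 with all arrays and -0.85 without replicate 3, while the cytokine and chemokine list, with a median of -1.73, lies at -1.75 without it.

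The genes whose levels were most like the mean of the 15 probes were sought among 3440 tested probes with a range of at least 1 log2 unit. The mean itself was 10.33, 10.13 and 10.44 in hSRY-OFF and 9.996, 10.24 and 11.67 in hSRY-ON livers. The 10 closest genes had Pearson correlations of 0.969 to 0.998 over the 6 arrays, given as a description because the arrays and the high value of replicate 3 are shared by all of them. In order they were *Ms4a3*, *Ly6c1*, *Serpinb1a*, *Ela2*, *Arhgdib*, *Bzrap1* (now *Tspoap1*), *Ccnb1*, *Ltb4r1*, *Mphosph6* and *Ifitm6*. Several are known from myeloid cells, namely *Serpinb1a*, an inhibitor of neutrophil serine proteases, *Ltb4r1*, the leukotriene B4 receptor, and *Ly6c1*, a surface antigen. *Ela2* is an older name of both *Elane* and *Cela2a*, a pancreatic elastase, so its gene was not settled, and it read 10.01, 9.79 and 10.06 in hSRY-OFF and 9.23, 9.83 and 11.70 in hSRY-ON livers. *Ccnb1*, cyclin B1 of dividing cells, read 6.23, 5.90 and 5.99 against 5.87, 6.09 and 7.34. Replicate 3 was the highest array for each of the 10, and none of the 10 passed the threshold (adjusted p = 0.294 to 0.763).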

How the data were processed

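Liver RNA of 3 hSRY-ON and 3 hSRY-OFF pups was hybridised by the authors to single-colour bead arrays. The sample labels gave the group and the number of each array. For each probe on each array the deposited table held the linear mean intensity of its beads, neither background-subtracted nor normalized, and the deposited detection p-value against negative control beads. Scanner software, annotation build, slide and scan date are not given in the sources used here, and 0 value columns were left without a sample. The human transgene has no probe in the table. Brain, heart and lung arrays were not used here.

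For the statistics the study names TCC, a method for counts, and the labels name limma. Because the values are intensities, limma 3.58.1 in R 4.3.3 was used. Background was removed with nec (normexp with detection p-values, offset 16), followed by quantile normalization and log2 transformation. Offset and background correction shrink or stretch the differences of dim probes. The test, made on probes detected (p under 0.01) on 3 or more of the 6 arrays whatever the group, used lmFit and eBayes without covariates. A probe detected in a single group passes this filter through that group, so the direction of its call is fixed beforehand. P-values are two-sided and adjusted by the Benjamini-Hochberg method over all tested probes, with a threshold of 0.05. The methods give 3 mice per group, and this number limits the precision. Where no array of the dimmer group detected a probe, each of its arrays was given its lowest detected signal, or the signal of the probe if higher, and the fold is written as "at least". Older gene names were matched through the RefSeq table of GRCm38.p6, and each probe of a gene had its own test. The sum of a list is over its tested probes, on the linear scale after the offset was subtracted.

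Named were all probes of the 10 genes, from each other list the probes past the threshold (up to 4, by smallest p), and the 10 genes closest to the members' mean. Further probes of these lists, and those past the threshold only without hSRY-ON replicate 3, were named after their values were seen. The genes and lists were chosen with earlier results of these data known. Motifs were searched on both strands of the 250 bases before each start; the 50 bases after it were not used.

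The steps were tested on simulated arrays with known changes. Same-numbered hSRY-ON and hSRY-OFF arrays were checked for shared deviations from their group means (correlations of 0.025, 0.095 and 0.052), so the numbers were not taken as pairs. Alternatives covered the background correction, offset, scaling, filter, variance model, array weights, a replicate block and each array left out in turn.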

Additional observations from a re-analysis of the deposited data

How the results depend on the processing

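The number of the 15 probes called higher was 1, and it was 0 without a filter on dim probes, 3 with the replicate number as a block, and 0 to 3 when each array was left out in turn. The number called lower was 0, 2 with array weights (both *Ltf* probes, adjusted p = 0.00392 and 0.0357) and 0 to 6 with an array left out, the 6 being the count without hSRY-ON replicate 3. Over all probes, leaving out an array gave 856 to 1822 probes higher and 965 to 2125 lower. These counts were smallest without hSRY-OFF replicate 1 (856 and 965) and were 950 and 1009 without hSRY-OFF replicate 2, and the cause was not tested. The *Chi3l3* call (ILMN_2712986) was lost without a filter (adjusted p = 0.0908) and on leaving out any array but hSRY-ON replicate 1 (adjusted p = 0.0528 to 0.136). With the replicate block, which had no support in the check of the numbers, the other *Chi3l3* probes were also called (adjusted p = 0.0176 and 0.0172), and 1565 and 1645 probes were called over all probes.

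The sign turned only when an array was left out, and only at *S100a9*, *S100a8*, *Camp* and *Ngp*, whose differences are small against their spread. With an array left out, *S100a9* ranged from -0.768 to 0.332 (0.015 without hSRY-OFF replicate 3, 0.249 without hSRY-ON replicate 2), *S100a8* from -0.369 to 0.122 (0.064 without hSRY-ON replicate 2), *Camp* from -0.92 to 0.054 and *Ngp* from -0.985 to 0.047. Each lowest value came without hSRY-ON replicate 3 and each highest without hSRY-ON replicate 1. *Lcn2* was called without hSRY-ON replicate 2 (1.07, adjusted p = 0.0068). With *Fcnb* and *Ms4a3* added to the primary class the change of secondary relative to primary granule genes was -0.995, and with *Fcnb* in its place 0.07, since *Fcnb* moved with the secondary class. With the class as given it lay between -1.44 and -1.25 under the other corrections and scaling and with each array left out. The dim *Ltf* and *Chi3l3* probes sit near background, where differences depend on the correction. Among the other genes named, the calls of *Trem1*, *Orm2*, *Clec4f*, *Alas2*, *Meis1*, *Ttr* and 1 probe each of *Itih4* and *Pecam1* were lost or could not be tested with at least 1 array left out; those of *Cxcl12*, *Cebpa*, *Cebpb*, *Orm1*, *Saa3*, *Emr1*, *F13a1* and *Prg2* were kept with any 1 array left out.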
